A study of Mus musculus with 12 samples.

Results

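The 10 genes described here belong to the interleukin-6 (IL-6) family of cytokines and its signalling through STAT3: the ligands Il6, Il11 and Lif, the receptor chains Il6ra, Il6st, Osmr and Lifr, the transcription factor Stat3, and the genes Socs3 and Cxcl1, which the pathway is known to induce. They were chosen by gene symbol, and all 26 array probe sets annotated to these genes alone were used, out of 34945 single-gene probe sets for 18193 genes. The choice of genes did not use measured values, but it was made with earlier results of these data known. Il6 and Il11 had 1 probe set each, Lif and Il6ra 2 each, Osmr, Lifr, Socs3 and Cxcl1 3 each, and Il6st and Stat3 4 each. No filter on low values was set, so all 26 probe sets were tested.

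Granulosa cells, the somatic cells that line the ovarian follicle, were obtained by puncturing antral follicles of 21-day-old mice of mixed C57BL/6J;129S5/SvEvBrd strain. The 4 groups were Inha-/- after PMSG and hCG, wild type after PMSG and hCG, Inha-/- after PMSG alone, and wild type after PMSG alone, each with 3 samples that the series design calls independent and 1 single-colour Affymetrix array per sample. PMSG, pregnant mare serum gonadotropin, mimics follicle-stimulating hormone: every animal was given 5 IU, for 44 to 46 h. The ovulatory signal was hCG, human chorionic gonadotropin, a mimic of luteinizing hormone, of which 5 IU followed for 6 h. Inha encodes the alpha subunit of inhibin. The labels name no Cre driver or cell type for the Inha deletion, and they do not say how many animals gave each sample. Where no separate animals are named, p-values measure the spread between these samples only.

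IL-6 family cytokines bind a ligand-specific receptor chain and the shared chain gp130, the product of Il6st. Receptor-bound Janus kinases then phosphorylate STAT3, which enters the nucleus and switches on target genes, among them Socs3, whose product shuts the receptor down. In the mouse ovary, granulosa and cumulus cells are known to make IL-6 after the ovulatory signal, and IL-6 can act on the cumulus cells around the oocyte.

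The deposited values are on a log2 scale, and for each probe set they count from its own median over the 12 samples. A value of 1 therefore means a level of 2-fold above that median, values cannot be compared between genes as levels, and whether a probe set was above background is not known. The number of arrays limits the precision. Inha lay between -7.40 and -5.40 on the 6 Inha-/- arrays and between 5.40 and 5.87 on the 6 wild-type arrays, as labelled. The medians of 12 granulosa markers ran from -0.12 to -0.03 in Inha-/- after hCG, from -1.99 to -0.83 in wild type after hCG, from -0.17 to 0.31 in Inha-/- after PMSG and from 0.40 to 0.63 in wild type after PMSG. The cells of a sample were measured together, so fewer cells of a type and less RNA per cell cannot be told apart. Wild type after hCG, replicate 3, had the widest spread of values, with an SD over all fitted probe sets of 0.76 against 0.397 on the narrowest array. Array names carry a serial number that splits the arrays into 7 early and 5 late ones: late are replicates 2 and 3 of each hCG group and replicate 3 of the Inha-/- group after PMSG. A further number joins 3 pairs of arrays, namely replicates 1 of the PMSG groups, replicates 2 of the PMSG groups, and the wild-type hCG replicates 2 and 3. What either number marks is not in the labels.

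The promoters of Il6 and Osmr are shown because these were the 2 members with the largest changes after hCG, a choice made after their values were seen. Each window runs from 250 bases before to 50 bases after the start site of the RefSeq transcript, in mouse build GRCm38.p6, and is written 5′ to 3′ on the gene's strand. It lies at chr5:30012864-30013163 on the plus strand for Il6 and at chr15:6874264-6874563 on the minus strand for Osmr. Capitals mark matches to 5 motifs searched on both strands.
Il6: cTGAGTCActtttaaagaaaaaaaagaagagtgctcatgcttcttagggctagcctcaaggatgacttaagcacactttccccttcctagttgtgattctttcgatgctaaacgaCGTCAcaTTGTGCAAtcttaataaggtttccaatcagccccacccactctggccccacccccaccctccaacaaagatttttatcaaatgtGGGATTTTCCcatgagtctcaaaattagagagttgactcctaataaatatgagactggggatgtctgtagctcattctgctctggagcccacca
Osmr: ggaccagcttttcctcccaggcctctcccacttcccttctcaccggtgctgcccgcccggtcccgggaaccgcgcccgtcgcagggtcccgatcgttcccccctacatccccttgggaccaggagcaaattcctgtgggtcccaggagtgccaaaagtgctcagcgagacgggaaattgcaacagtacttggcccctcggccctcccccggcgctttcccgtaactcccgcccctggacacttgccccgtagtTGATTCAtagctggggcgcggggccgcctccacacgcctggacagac
In the Il6 window the capitals are, in order, a match to the AP-1 motif TGANTCA at position -249 from the start site, a cyclic AMP response element (CRE) core TGACG read on the opposite strand at -135, a C/EBP motif TTGNGNAA at -128, and an NF-kB motif GGGANTTTCC at -44. None of these matches overlap. The Osmr window held an AP-1 match beginning at position 4 of the transcript, and no match to the other 4 motifs. Over all 32851 promoter windows of this length, AP-1 matches occurred in 7.81%, CRE cores in 20.8%, C/EBP matches in 13.3%, NF-kB matches in 0.411% and the STAT palindrome TTCNNNGAA in 8.3%. Among the 12 windows of the 10 genes, the NF-kB letters were found in Il6 and Cxcl1, the STAT palindrome in Socs3 alone at position -154, and the AP-1 letters in Il6, Il11, Lif and Osmr. These are matches of letters only, and binding was not measured.

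After hCG, Il6 rose in Inha-/- and in wild-type cells, and in wild-type cells Osmr also rose and Lifr fell. Before hCG, Lifr was lower in Inha-/- than in wild-type cells. No member passed the test for a difference between genotypes after hCG, or for a difference between the genotypes in their response to hCG. A probe set was called at an adjusted p under 0.05, from limma with Benjamini-Hochberg adjustment over all 34945 probe sets of a contrast. In Inha-/- cells 1 member probe set was called higher after hCG, which is 3.85% of 26 against 1.2% of all probe sets. At an unadjusted p under 0.05 there were 9, or 34.6% against 9.3% of all, though several of these belong to the same genes. In wild type 2 were called higher and 1 lower after hCG, or 11.5% against 12.1% of all. Unadjusted, 5 were under 0.05, or 19.2% against 23.3% of all. After PMSG alone 1 was called lower in Inha-/- than in wild-type cells, or 3.85% against 3.04% of all. Unadjusted, 3 were under 0.05 there, or 11.5% against 14.6% of all. After hCG 0 were called between genotypes, where 12.1% of all probe sets were; at an unadjusted p under 0.05 there were 6, or 23.1% against 23.2% of all. The test of the interaction, that is of the difference between the responses, called 0 of 26, against 0.93% of all, and 3 at an unadjusted p under 0.05, or 11.5% against 10.5% of all. The shares of called members were thus close to or below the background except for the single call in Inha-/- cells after hCG. In that contrast the unadjusted share of members was also above the background. Each hCG response and each genotype comparison shares samples with others, so the 4 are not independent.

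Il6, the founding cytokine of the family, changed most. Its probe set 1450297_at read 1.3, 3.14 and 1.69 in replicates 1, 2 and 3 of Inha-/- after hCG, and 2.40, 2.89 and 3.07 in wild type after hCG. After PMSG alone it read -1.46, -1.59 and -1.3 in Inha-/- and -1.56, -1.57 and -1.53 in wild type. Every array after hCG was above every array after PMSG alone, and the 6 arrays after PMSG alone lay close together. With hCG the Il6 value rose by 3.50 ± 0.394 on the log2 scale in Inha-/- cells (SE, 95% interval 2.61 to 4.38, adjusted p = 0.00218 by limma), or 11.3-fold. The rise in wild-type cells was 4.34 ± 0.394 (95% interval 3.45 to 5.23, adjusted p = 0.000177), or 20.3-fold. Among all probe sets, 0.97% in Inha-/- and 4.01% in wild type were called at least 2-fold higher after hCG. The response in Inha-/- minus that in wild type was -0.84 (95% interval -2.10 to 0.41, adjusted p = 0.763).

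Leaving out any 1 array kept the Il6 rise called in both genotypes, between 2.95 and 3.87 in Inha-/- and between 4.20 and 4.53 in wild type. A fit on the 6 Inha-/- arrays alone gave the same 3.50 with an adjusted p of 0.0807. Among early arrays the difference was 2.83 in Inha-/- (1 array after hCG against 2 after PMSG) and 3.96 in wild type (1 against 3); among late arrays it was 3.72 in Inha-/- (2 against 1), and no late wild-type array after PMSG alone exists. After hCG, Il6 was at 2.05 ± 0.97 in Inha-/- and 2.79 ± 0.34 in wild type (SD, n = 3 each), a difference of -0.74 (95% interval -1.63 to 0.15, adjusted p = 0.331). This comparison turns on 1 sample: without replicate 2 of Inha-/- after hCG the difference was -1.29 (adjusted p = 0.00635). Within the early arrays it was -1.10 (1 against 1) and within the late ones -0.56 (2 against 2). That replicate 2 also had the highest values of the myeloid markers Cd14, S100a8 and S100a9 of all 12 arrays, 4.71, 4.55 and 4.99. The leukocyte markers Tyrobp, Lyz2, Coro1a, Laptm5, Cd68, Cd53 and Cd3e were also highest on this array. The remaining ones measured, Ptprc, Cd52, Adgre1, Csf1r, Fcer1g, Itgam and Cd79a, were highest on other arrays, and Itgam read -0.02 on this one. Cd14 also read 1.56 and 1.93 in replicates 2 and 3 of wild type after hCG. Whether blood cells or other cell types had a part in the Il6 value of that Inha-/- replicate was not tested.

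**Figure D1:**
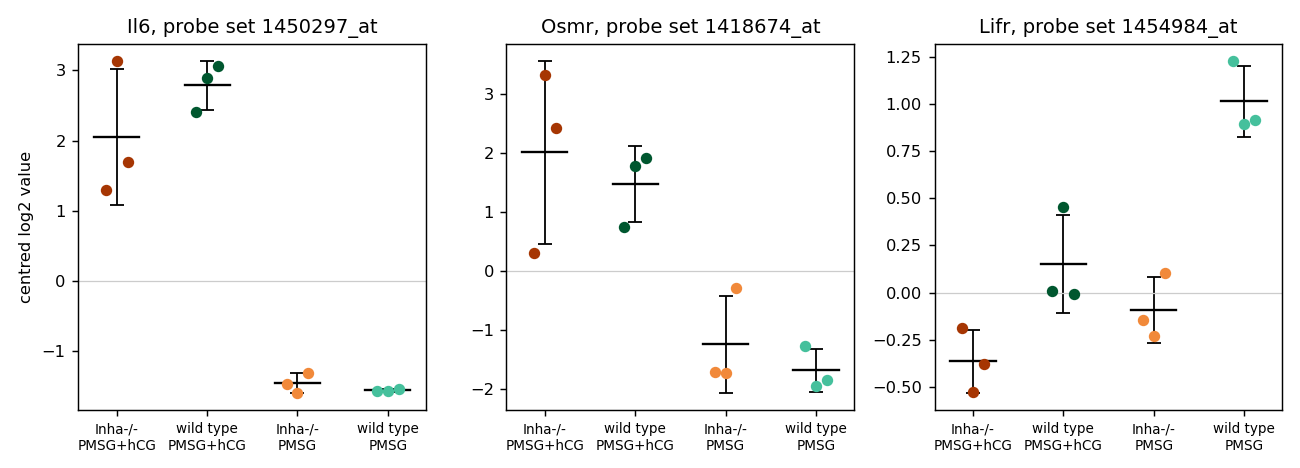
Centred log2 values of Il6, Osmr and Lifr (y axes), for the lead probe set of each gene, in the 4 groups on the x axes. Points are single arrays, the horizontal bars are means and the vertical bars are SD (n = 3 each). All arrays after hCG lie above all arrays after PMSG alone for Il6 and Osmr, and wild type after PMSG alone lies above the other groups for Lifr.

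Il11, a cytokine that signals through its own receptor chain and gp130, was flat on every array but one. Its value was 3.02 in replicate 2 of Inha-/- after hCG, and between -0.06 and 0.09 on every other array. The difference after hCG of 1.05 in Inha-/- cells rested on that sample and was not called (adjusted p = 0.762). Lif, leukaemia inhibitory factor, hardly varied: its lead probe set 1421207_at had an SD of 0.09 over the 12 arrays and the other, 1450160_at, of 0.04. Its highest value, 0.30, was in replicate 1 of wild type after hCG. The lead probe set of a gene is the one with the largest SD over all 12 arrays, taken without regard to group. Since centred values do not tell background from signal, flat values of Il11 and Lif do not say whether the genes were expressed.

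Of the receptor chains, Osmr, which joins gp130 to bind oncostatin M, changed with hCG. Its lead probe set 1418674_at read 0.30, 3.32 and 2.43 in Inha-/- after hCG and 0.74, 1.78 and 1.91 in wild type after hCG. The values after PMSG alone were -1.72, -1.73 and -0.30 in Inha-/- and -1.27, -1.95 and -1.85 in wild type. No array after PMSG alone reached any array after hCG of the same genotype. In Inha-/- cells the difference was 3.26 ± 0.723 on the log2 scale (SE, 95% interval 1.63 to 4.89) and did not pass the threshold (adjusted p = 0.0826). The rise in wild-type cells was 3.17 ± 0.723 (95% interval 1.54 to 4.80, adjusted p = 0.0207), or 8.99-fold. The 2 responses differed by 0.09 (95% interval -2.21 to 2.40, adjusted p = 0.970).

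The Osmr call was not stable. In wild type it was lost without replicate 2 or 3 after hCG (adjusted p = 0.0543 and 0.0838) and without replicate 2 or 3 after PMSG (0.0709 and 0.0638), with values between 2.95 and 3.54 over all arrays left out. With the shared number in the array names as a random block the rise was 2.85 (adjusted p = 0.0675). With early or late serial number as a covariate the value in wild type was 2.03 (adjusted p = 0.0172), and within early arrays it was 2.43. In Inha-/- cells Osmr was called without replicate 1 after hCG (4.12, adjusted p = 0.00848) and with the serial covariate (2.69, adjusted p = 0.00906). Within serial classes the difference in Inha-/- was 2.02 among early and 3.17 among late arrays. The other Osmr probe sets did not show the response: 1418675_at differed by 0.46 in Inha-/- and 0.01 in wild type, and 1459217_at had an SD of 0.06.

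Lifr, the chain that pairs with gp130 for LIF and several relatives, went the other way. The lead probe set 1454984_at read -0.19, -0.52 and -0.38 in Inha-/- after hCG, and 0.01, 0.45 and -0.01 in wild type after hCG. Its values after PMSG alone were -0.15, -0.23 and 0.10 in Inha-/- against 1.23, 0.90 and 0.92 in wild type. Wild type after PMSG alone stood above all other arrays. There, Lifr was lower in Inha-/- than in wild-type cells, with a log2 difference of -1.10 ± 0.157 (SE, 95% interval -1.46 to -0.75, adjusted p = 0.00763), a 2.15-fold difference. In wild type it fell after hCG by 0.86 ± 0.157 on the log2 scale (adjusted p = 0.00783), or 1.82-fold. Both calls were kept whichever array was left out, with values from -1.20 to -0.996 and from -1.01 to -0.75.

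In Inha-/- cells the hCG difference of the lead Lifr probe set was -0.27 (adjusted p = 0.726). The other 2 probe sets did not share its sign. On 1425107_a_at the difference was 0.71 (95% interval 0.06 to 1.36, adjusted p = 0.473) and on 1450207_at it was 0.04. On the lead probe set the genotypes differed after hCG by -0.51 (95% interval -0.87 to -0.16, adjusted p = 0.0658) with no overlap of the arrays. Its interaction was 0.59 (95% interval 0.09 to 1.09, adjusted p = 0.353). Among early arrays the genotype difference after PMSG was -1.20, and the pairs that share a number in the array names differed by -1.38 and -1.12. The other Lifr probe sets lay on the same side after PMSG, 1425107_a_at at -1.20 (adjusted p = 0.06) and 1450207_at at -0.36 (adjusted p = 0.269). After hCG they differed between genotypes by only -0.13 and -0.06, with overlap of the arrays. Their differences with hCG in wild type were -0.37 and -0.26, also with overlap and without a call. Several markers of theca and stroma moved with genotype in these samples: 5 of 13 were called higher in Inha-/- after PMSG and 8 of 13 after hCG. Of the lead probe sets of all genes, 3.34% and 13.3% were called in these 2 comparisons. Cyp17a1 of the theca and stroma list went the other way without a call. After PMSG it read -1.79, -1.84 and -0.08 in Inha-/- against 0.53, 2.56 and 2.01 in wild type, and after hCG it was also lower in Inha-/-. The median of that list lay between 0.56 and 2.37 in Inha-/- and between -1.14 and -0.51 in wild type after hCG, and between 0.57 and 1.66 in Inha-/- and between -0.71 and -0.43 in wild type after PMSG. Of 7 markers of surface epithelium, 4 were called lower in Inha-/- after PMSG and 4 after hCG. Of 12 oocyte markers, 3 were called higher in Inha-/- after PMSG and 7 after hCG. Their part in the Lifr difference was not tested, and with centred values no marker can be said to be absent.

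Il6ra, the chain specific to IL-6, and Il6st, the shared chain, were not called in any contrast. On the lead probe set of Il6ra, 1452416_at, Inha-/- after hCG read 0.01, 0.40 and -0.08, wild type after hCG 0.03, 0.95 and 0.87, and all 6 arrays after PMSG alone lay between -0.15 and 0.03. The high values were thus those of replicates 2 and 3 of wild type, both on late arrays. The difference of 0.70 with hCG in wild type had a 95% interval of 0.20 to 1.20 (adjusted p = 0.0747), and without replicate 1 of wild type after hCG it was 0.99 (adjusted p = 0.00276). The second probe set, 1422270_a_at, did not follow it (r = -0.168 over 12 arrays). The 4 Il6st probe sets correlated with each other at 0.271 to 0.768. Probe set 1460295_s_at read 0.12, 0.41 and 0.67 in Inha-/- against -0.05, -0.81 and -0.86 in wild type after hCG, a difference of 0.97 without overlap (adjusted p = 0.0618). The lead Il6st probe set, 1421239_at, spread over 4.0 log2 units with its lowest value, -2.70, in replicate 3 of Inha-/- after PMSG. No group stood apart from all the others, but wild type after hCG lay below wild type after PMSG alone without overlap (-0.99, adjusted p = 0.758). After hCG the 4 probe sets were all higher in mean in Inha-/- than in wild type, by 1.26, 0.97, 0.67 and 0.34, none of them called. On 1452843_at (0.67) the arrays did not overlap either.

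**Figure D2:**
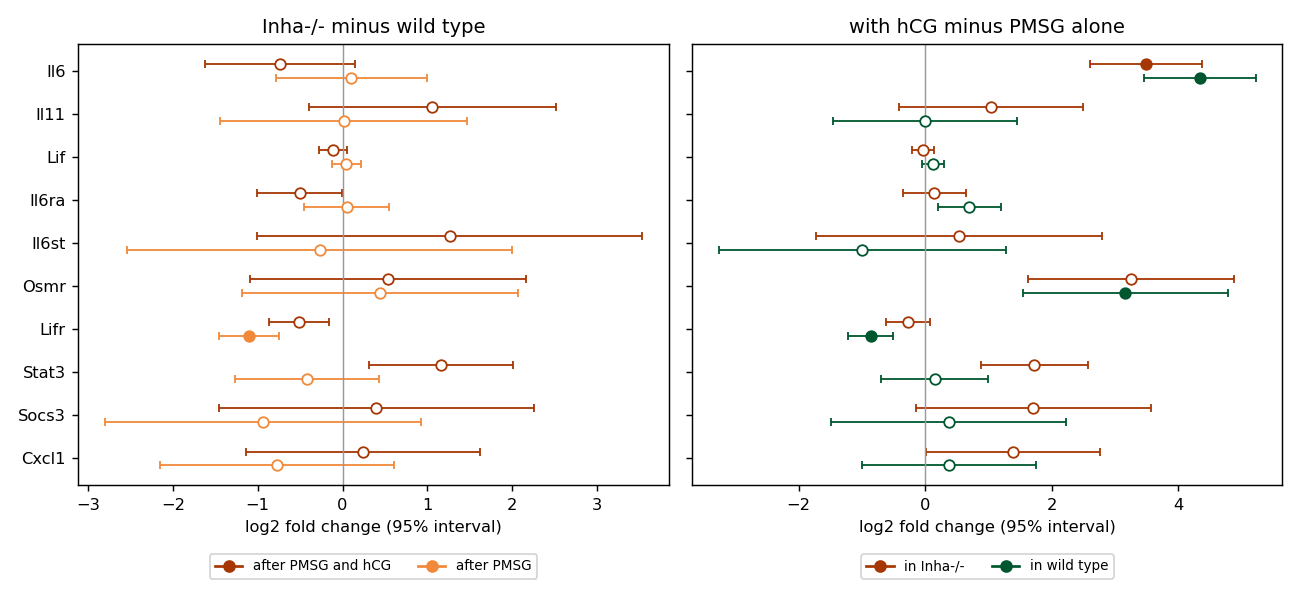
Log2 fold changes of the lead probe sets of the 10 genes with 95% intervals (x axes), as Inha-/- minus wild type on the left and with hCG minus PMSG alone on the right. Filled points have an adjusted p under 0.05. The filled points are Lifr after PMSG on the left (-1.10) and, on the right, Il6 in Inha-/- cells (3.50) with Il6, Osmr and Lifr in wild-type cells (4.34, 3.17 and -0.86).

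Stat3 encodes the transcription factor that carries the signal to the nucleus and is also known as a target of its own pathway. On the lead probe set, 1426587_a_at, Inha-/- after hCG read 1.04, 1.23 and 0.86 and wild type after hCG -0.04, -0.27 and -0.06. After PMSG alone the values were -1.10, 0.04 and -1.0 in Inha-/- and -1.12, 0.10 and 0.21 in wild type. Inha-/- arrays after hCG lay above all 9 others. None of the differences was called: hCG against PMSG alone gave 1.73 in Inha-/- cells (95% interval 0.88 to 2.58, adjusted p = 0.0776) and 0.15 in wild type. After hCG, Inha-/- minus wild type was 1.16 (95% interval 0.32 to 2.01, adjusted p = 0.0819). The interaction was 1.58 (95% interval 0.38 to 2.78, adjusted p = 0.286), the lowest adjusted p of any member for this contrast.

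The 4 Stat3 probe sets did not all agree in which genotype stood higher after hCG. Inha-/- minus wild type was 1.16 on the lead, 0.52 on 1460700_at, 0.22 on 1424272_at and -0.71 on 1459961_a_at. With hCG, Inha-/- arrays lay above those after PMSG alone on all 4, by 1.73, 1.23, 0.27 and 0.63 in that order, none called. The differences in wild type were 0.15, 0.75, 0.10 and 0.77, with overlap except on 1460700_at. Probe set 1460700_at read 0.39, 1.41 and 0.61 in Inha-/- and 0.26, 0.17 and 0.41 in wild type after hCG, and differed from PMSG alone by 1.23 in Inha-/- (adjusted p = 0.068) and 0.75 in wild type (adjusted p = 0.106). Probe set 1459961_a_at read 0.67, 0.08 and -0.08 in Inha-/- against 1.53, 0.57 and 0.69 in wild type, lower in mean in Inha-/- but without a call (adjusted p = 0.391). Correlations between the Stat3 probe sets ran from -0.01 to 0.811. Several Stat3 differences lay near the threshold and were called under other settings: the lead difference between genotypes after hCG had an adjusted p of 0.0408, and that with hCG in Inha-/- of 0.027, when only probe sets of higher SD were fitted. STAT3 protein and its phosphorylation were not measured.

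**Figure D3:**
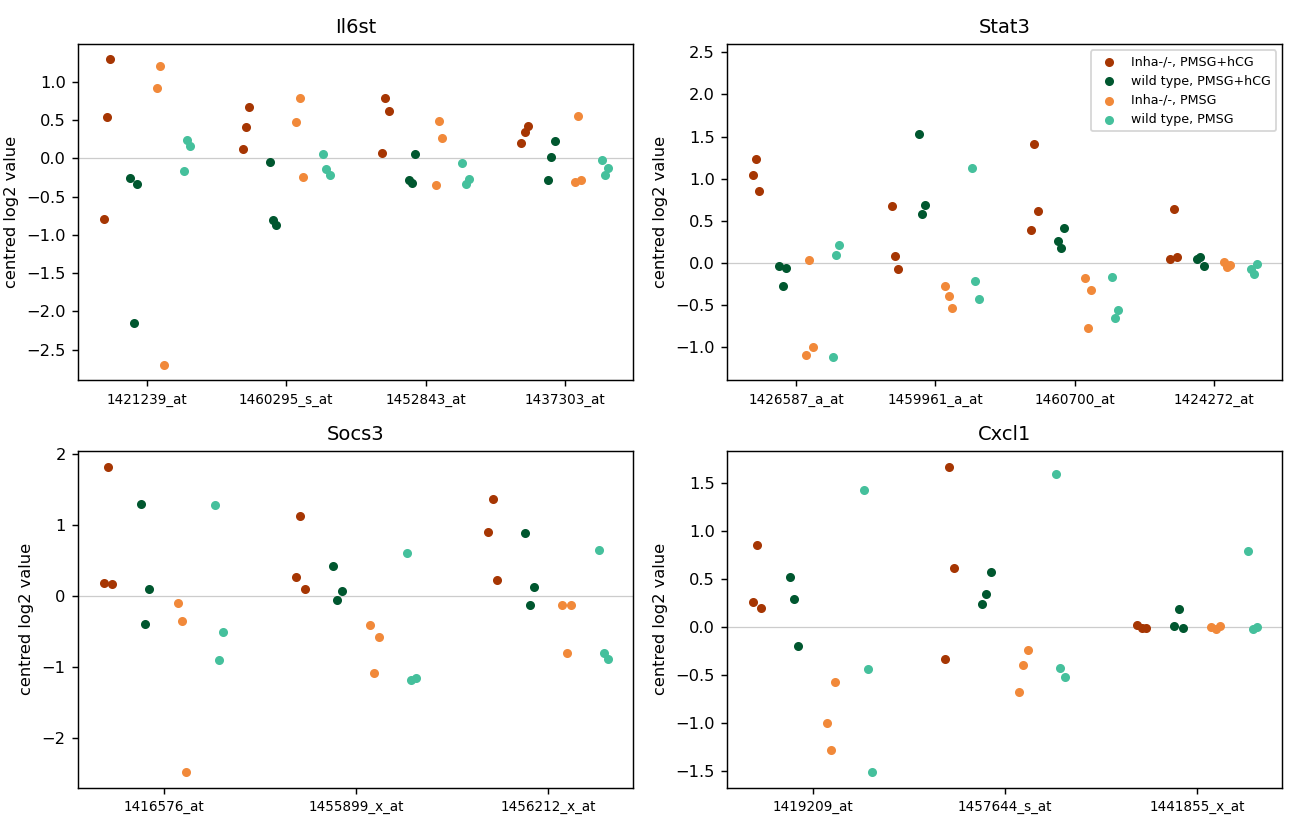
Centred log2 values (y axes) of all probe sets of Il6st, Stat3, Socs3 and Cxcl1 (x axes), with 1 point per array and colours for the 4 groups. Inha-/- arrays after hCG lie highest on Stat3 probe set 1426587_a_at but not on 1459961_a_at, and 1 wild-type array after PMSG alone stands apart from its group on Cxcl1 and Socs3.

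Socs3, the feedback inhibitor of gp130 receptors, and Cxcl1, a chemokine that draws neutrophils, are known targets in other tissues and were not called in any contrast. On the lead Socs3 probe set, 1416576_at, the values were 0.19, 1.83 and 0.17 in Inha-/- after hCG and 1.3, -0.40 and 0.10 in wild type after hCG. After PMSG alone they were -0.10, -0.36 and -2.49 in Inha-/- and 1.28, -0.91 and -0.51 in wild type. The wild-type groups overlapped, and the 2 high wild-type arrays were replicate 1 of each treatment. The difference with hCG was 1.71 in Inha-/- cells (95% interval -0.15 to 3.57, adjusted p = 0.60) and 0.37 in wild type. The other Socs3 probe sets correlated with each other and with the lead at 0.709 to 0.963. On both of them the Inha-/- arrays after hCG lay above those after PMSG alone, by 1.20 and 1.19 (adjusted p = 0.449 and 0.446).

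Cxcl1 followed a similar course. Its lead probe set 1419209_at read 0.27, 0.86 and 0.20 in Inha-/- after hCG and 0.52, 0.29 and -0.20 in wild type after hCG. The values after PMSG alone were -1.0, -1.28 and -0.57 in Inha-/- and 1.43, -0.44 and -1.51 in wild type. In Inha-/- cells the groups did not overlap and differed by 1.39 (95% interval 0.01 to 2.77, adjusted p = 0.528), while in wild type the value 1.43 of replicate 1 after PMSG was the highest of all arrays. The difference in wild type was 0.38. The second Cxcl1 probe set, 1457644_s_at, read -0.33, 1.67 and 0.61 in Inha-/- after hCG against -0.67, -0.40 and -0.24 after PMSG alone, so the groups overlapped, with a difference of 1.09 (adjusted p = 0.702). On the third Cxcl1 probe set, 1441855_x_at, the same replicate 1 read 0.80, no other array passed 0.19, and the difference with hCG in Inha-/- was 0.00592.

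The wild-type arrays with high Socs3 values were also those with high values of dissociation and acute stress genes, such as Fos and Fosb. Of 12 such genes, 0 were called in either hCG response, against 1.44% of the lead probe sets of all genes in Inha-/- and 13.5% in wild type. Fos and Junb of these 12 are also in the list of STAT3 targets described below, so the 12 are not a measure apart from the pathway. The median of the 12 was 2.23 in replicate 1 of wild type after hCG, against 0.74 and 0.69 in the other arrays of that group, and 1.58 in replicate 1 of wild type after PMSG, against -0.18 and -0.41. Fosb read 4.84 in the first of these arrays and 4.90 in the second. In Inha-/- the median ran from -0.27 to 0.18 after hCG and from -2.07 to -0.43 after PMSG alone, and the array with the highest Socs3 value (1.83) was not the one with the highest stress median. Without replicate 1 of wild type after PMSG, Socs3 probe set 1455899_x_at rose by 1.32 with hCG in wild type (adjusted p = 0.0403) and Stat3 probe set 1459961_a_at by 1.25 (adjusted p = 0.0408), and the lead Stat3 difference in Inha-/-, 1.73, was called (adjusted p = 0.0232). The part of stress genes in these values was not tested.

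**Figure D4:**
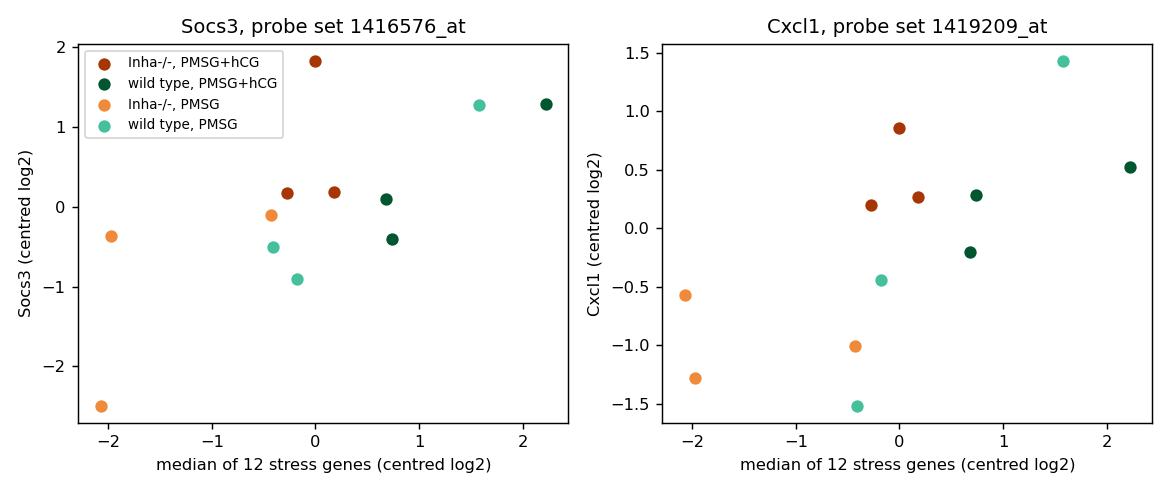
Centred log2 values of Socs3 and Cxcl1 (y axes) against the median of 12 dissociation and stress genes (x axes), with 1 point per array, coloured by group. Replicate 1 of wild type after PMSG, at a stress median of 1.58, holds the highest Cxcl1 value (1.43), and replicate 2 of Inha-/- after hCG the highest Socs3 value (1.83) at a median near 0.

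Of 17 leukocyte markers, 0 were called in either genotype contrast or in the hCG response of Inha-/- cells, and 1 was called higher with hCG in wild type. Of the lead probe sets of all genes, 3.34% were called between genotypes after PMSG and 13.3% after hCG. With hCG, 1.44% were called in Inha-/- and 13.5% in wild type, so few calls would be seen in a list of this size. The median of the list was 0.00147, 0.88 and 0.68 in Inha-/- after hCG and between -0.05 and 0.21 in wild type after hCG. Before hCG it lay between -0.30 and 0.08 in Inha-/- and between -0.23 and -0.04 in wild type. Ptprc, the pan-leukocyte marker CD45, read -0.12, 0.57 and 0.86 in Inha-/- and 0.09, 0.38 and 0.50 in wild type after hCG. Replicates 2 and 3 of Inha-/- after hCG, which had the highest leukocyte medians, also had the highest Osmr values. The same arrays, both late, also had the highest medians of theca and stroma markers (2.37 and 1.72) and of oocyte markers (3.01 and 2.66). The part of leukocytes or of other cell types in the Osmr, Il11 and Socs3 values of those samples was not tested.

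Among the rest of the pathway, 59 of 64 listed genes had a single-gene probe set. They comprised 6 ligands, 3 receptor chains, 4 Janus kinases, 5 other STATs, 12 inhibitors, 20 STAT3 targets known from other tissues and 9 chemokines and their receptors. The lists were drawn up with earlier results of these data known. By their lead probe sets, 4 were higher and 4 lower in Inha-/- than in wild type after hCG, or 13.6% against 13.3% of the lead probe sets of all genes. In Inha-/- cells 1 rose with hCG, or 1.69% against 1.44%. In wild type 4 rose and 2 fell with hCG, or 10.2% against 13.5%, and after PMSG alone 1 was lower in Inha-/-, or 1.69% against 3.34%. The interaction called 0 of 59, against 1.08% of all, with Clcf1 lowest at an adjusted p of 0.0748. The pathway as listed was therefore called about as often as genes in general.

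Clcf1, a ligand related to IL-6 that signals through gp130 and Lifr, stood out among the ligands. It read 0.29, 0.75 and 0.08 in Inha-/- after hCG, against 3.17, 2.55 and 1.65 in wild type after hCG. After PMSG alone all 6 arrays were below 0, at -0.08, -0.33 and -0.10 in Inha-/- and -0.21, -0.44 and -0.18 in wild type. Clcf1 was thus high only on the 3 wild-type arrays after hCG. With hCG the difference in Inha-/- cells was 0.54 on the log2 scale (adjusted p = 0.754), and the rise in wild type was 2.73 (95% interval 1.99 to 3.48, adjusted p = 0.000976), or 6.65-fold. After hCG Clcf1 was lower in Inha-/-, with a difference of -2.08 (95% interval -2.82 to -1.34, adjusted p = 0.00361), or 4.24-fold. The interaction of -2.19 (95% interval -3.24 to -1.14) did not pass the threshold. Both Clcf1 calls were kept under all 22 alternatives, the genotype difference running from -2.49 to -1.42.

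Among the kinases, Jak2 rose by 0.91 with hCG in wild type (adjusted p = 0.0242). In Inha-/- the Jak2 difference with hCG was 0.72, not called (adjusted p = 0.249) but without overlap of the arrays. Tyk2 was lower in Inha-/- after hCG (log2 difference -0.77, adjusted p = 0.0148). Among the inhibitors, Socs7 was higher in Inha-/- after hCG (0.83, adjusted p = 0.0244), and Pias1, which blocks the binding of STATs to DNA, was lower (-1.53, adjusted p = 0.0405). The Tyk2 call was kept under all 22 alternatives and the Jak2 call under 17, the Socs7 call under 16 and the Pias1 call under 12.

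The STAT3 targets did not move one way. After hCG Icam1, an adhesion molecule, read 1.22, 3.96 and 2.87 in Inha-/- and -0.08, 0.02 and 0.23 in wild type, 2.63 higher in Inha-/- (adjusted p = 0.012). Icam1 was also the gene that rose with hCG in Inha-/- (2.86, adjusted p = 0.038), a call kept under 8 of 22 alternatives. Its 2 highest values were on the Inha-/- arrays with the highest leukocyte medians (0.88 and 0.68) and Cd14 values (4.71 and 2.43). Those late arrays also had the highest medians of theca and stroma markers and of oocyte markers. The part of leukocytes or of other cell types was not tested. The kinase gene Pim1 read 1.79, 1.92 and 0.97 in Inha-/- and -0.82, -0.31 and 0.07 in wild type after hCG, 1.91 higher in Inha-/- (adjusted p = 0.00555), and this was kept under all 22. Birc5, which encodes the mitotic protein survivin, was 0.75 higher in Inha-/- after hCG (adjusted p = 0.0107). Timp1, an inhibitor of metalloproteinases, was lower in Inha-/- after hCG (-1.85, adjusted p = 0.0309), kept under 15, and it rose by 4.09 with hCG in wild type (adjusted p = 0.000717). Myc, a growth regulator, was lower in Inha-/- after PMSG (-1.88, adjusted p = 0.00922), and it fell with hCG in wild type by 1.69 (adjusted p = 0.00509). In Inha-/- the Myc difference with hCG was -0.48 (adjusted p = 0.733). Birc5 also fell with hCG in wild type, by 0.72 (adjusted p = 0.0135), kept under 16. In Inha-/- the Birc5 difference with hCG was -0.55, not called (adjusted p = 0.172). Among the chemokines, Cxcl5 rose by 2.68 with hCG in wild type (adjusted p = 0.0221), kept under 16. Its 2 highest values, 2.92 and 1.98, were on the same Inha-/- arrays after hCG as those of Icam1.

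**Figure D5:**
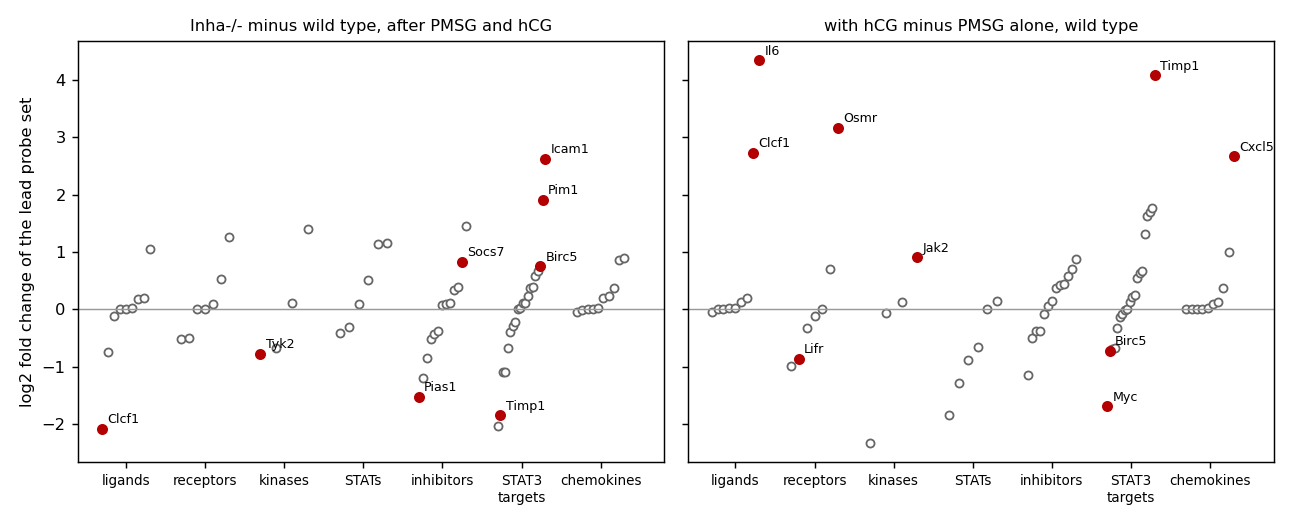
Log2 fold changes of the lead probe sets (y axis) of all measured pathway genes, grouped by role on the x axis, for Inha-/- minus wild type after PMSG and hCG on the left and hCG minus PMSG alone in wild type on the right. Filled and named points have an adjusted p under 0.05. On the left they lie on both sides of 0, from Clcf1 (-2.08) to Icam1 (2.63), and on the right Il6 (4.34) and Timp1 (4.09) are highest.

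Over the 12 arrays, the genes with the course most like that of Il6 were Chgb (Pearson r = 0.989), Tpm4 (0.988), Nts (0.981), Galnt16 (0.981) and Cotl1 (0.981). These values describe arrays that share the split by hCG. Of these, Nts, which encodes the peptide neurotensin, was 10.42 higher with hCG in Inha-/- and 11.88 in wild type on the log2 scale, and Chgb, which encodes the secretory granule protein chromogranin B, was 4.61 and 6.26 higher. Among the members, Osmr was closest to Il6 (r = 0.925), then Il6ra (0.719), Stat3 (0.532), Cxcl1 (0.514), Socs3 (0.477), Il11 (0.405) and Lif (0.266), with Il6st at -0.146 and Lifr at -0.494.

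Over all 26 member probe sets the median log2 difference with hCG was 0.50 in Inha-/- cells, against -0.04 over all probe sets, and 0.10 in wild type, against 0.00465 over all. Inha-/- minus wild type had a median of 0.25 after hCG, against -0.000757 over all, and of 0.02 after PMSG alone, against 0.04 over all. Probe sets of the same gene are not independent, and these medians carry no test.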

How the data were processed

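Total RNA of 12 granulosa cell samples, 3 per group by their titles and characteristics, was hybridised to 1 Affymetrix array each. The authors deposited log2 values made with GCRMA, per the submitters' processing notes; the GCRMA version is not given in the sources used here. Within 5e-07, the median of every probe set is 0, so the values had been centred, which no label states. Centred values keep differences between samples and lose the level of a gene. The table held 0 columns of other samples.

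Of 45101 probe sets, 64 controls, 932 naming several genes and 9160 naming none were left out of the fit. A model of 4 group means was fitted with limma 3.58.1 in R 4.3.3 to all 34945 others, with Benjamini-Hochberg adjustment per contrast and a threshold of 0.05. No second scaling was applied, since array medians lay between -0.0197 and 0.093. Members, gene lists and markers were chosen with earlier results of these data known. All members were named, other pathway genes only where the lead probe set was called, and the 5 genes with the highest correlation to Il6. Promoters came from RefSeq. The fit was tested on simulated data. The alternatives were a filter on SD (the upper 60%, at least 0.151), 1 probe set per gene, quantile normalization, centring of arrays, array weights, a block or covariate for the numbers of titles and array names, fits on 2 groups, robust variance moderation and leaving out each array. Proteins were not used here.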

Additional observations from a re-analysis of the deposited data

How the results depend on the processing

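Without each array in turn, the member probe sets called stayed at 1 for Inha-/- against wild type after PMSG and at 0 for the interaction, and ranged from 0 to 2 for Inha-/- against wild type after hCG, from 1 to 4 for hCG in Inha-/- and from 2 to 5 for hCG in wild type, against 0, 1 and 3 with all arrays. Of all probe sets, 7.12 to 13.1%, 0.83 to 1.37% and 6.51 to 13.2% were called in these 3 contrasts. The highest counts came without replicate 1 of Inha-/- after hCG (2 and 4), without replicate 1 of wild type after hCG (2 for the genotypes after hCG) and without replicate 1 of wild type after PMSG (5). With only probe sets of higher SD in the fit, the counts were 2 of 23 for the genotypes after PMSG, 2 after hCG and 4 for hCG in Inha-/-, where 5.79, 20.6 and 2.31% of all fitted were called; with 1 probe set per gene, 1 of 9 for the genotypes after hCG and 3 for hCG in Inha-/- (21.4 and 2.67% of all). Fewer probe sets were tested in both. Quantile normalization gave 1 and 2 for the same contrasts (9.34 and 1.63% of all). Array weights gave 6 for the genotypes after PMSG, 6 after hCG, 10 for hCG in Inha-/-, 7 for hCG in wild type and 7 for the interaction, where 26.3, 26.6, 25.6, 30.6 and 21.1% of all probe sets were called. The number in the array names as a random block (correlation 0.573) gave 2 for the genotypes after PMSG and 2 for hCG in wild type (7.43 and 5.61% of all). The serial covariate gave 2 for the genotypes after PMSG, 1 after hCG and 2 for hCG in Inha-/- (3.21, 13.9 and 1.4% of all). Fits on only the 2 groups compared gave 1 for the genotypes after hCG, 0 for hCG in Inha-/- and 4 for hCG in wild type (9.79, 0.501 and 9.46% of all). Apart from the smaller number of probe sets or samples where named, the cause was not tested. Centring arrays and robust moderation changed no member count, and no called log2 value of a member or other pathway gene reversed under any alternative run.

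The replicate number as a replicate block left the member counts at 1 for the genotypes after PMSG, 0 after hCG, 1 for hCG in Inha-/-, 3 for hCG in wild type and 0 for the interaction. Same-numbered samples deviated together with correlations from -0.141 to 0.265, and no comparison had every pair above 0.1, so the main fit did not pair samples. Between genotypes after PMSG, however, the same-numbered pairs correlated at 0.171, 0.265 and 0.0949, and no differently numbered pair passed 0.0183. Whether the samples of that comparison were paired was therefore not settled. For the 59 other pathway genes, whose alternatives were added after seeing the data, counts without 1 array ran from 1 to 2 for the genotypes after PMSG, from 5 to 11 after hCG, from 0 to 3 for hCG in Inha-/-, from 3 to 10 for hCG in wild type and from 0 to 1 for the interaction, where 1.51 to 3.97%, 7.12 to 13.1%, 0.83 to 1.37%, 6.51 to 13.2% and 0.406 to 2.26% of all probe sets were called; array weights gave 14, 19, 21, 20 and 13, beside the shares of all probe sets given above for them. Signal over background cannot be read from centred values, which limits what flat probe sets show.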
